A study of Daphnia magna with 144 samples.

Results

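A set of 150 array probes, out of 14338, was chosen for lying on one side of the other chemicals in both juvenoids of a chemical screen in Daphnia magna, a freshwater water flea. Juvenoids are the juvenile hormones of arthropods and their mimics. Methyl farnesoate, a sesquiterpenoid ester, is the juvenile hormone of crustaceans, and pyriproxyfen is a synthetic insecticide that acts as a juvenile hormone mimic in insects. Juvenile hormones bind the receptor Methoprene-tolerant, which works as a transcription factor together with a partner protein. In Daphnia, exposure of mothers to juvenoids is known for leading to male offspring, and the moulting hormones, the ecdysteroids, are the other main hormone system tested with such compounds.

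The series holds arrays of 1 colour (Cy3), 4 for each of 36 chemicals. Each sample was total RNA of whole animals, 20 to a beaker and 14 days old, kept for 24 h in COMBO medium. The chemical was added at 0.1 of its LC50, a dose at which the median animal dies. Every beaker label also names the control series of its chemical, and the name of that series (Media, Ethanol, Methanol, Acetone or DMSO) is called the vehicle here. Methylfarnesoate, as the labels spell it, belonged to Methanol with Aroclor (0.166 mg/L) and Chlorpyrifos (0.00129 mg/L). Its dose is labelled 20 with both nM and mg/L as the unit, so the unit is not settled. Pyripoxyfen, the label for pyriproxyfen, was given at 0.3 nM and belonged to Ethanol with 14 other chemicals. The ecdysteroids were 20 hydroxyecdysone (1.37 mg/L, Media) and PonasteroneA (0.813 uM, Ethanol). A further 12 chemicals of Media, 3 of Acetone and 2 of DMSO complete the 36. A beaker of whole animals gives 1 level for all tissues, so fewer cells of a type and less RNA per cell cannot be told apart.

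The set was chosen on measured values. The level of a probe was log2 of the background-subtracted signal plus an offset of 50, quantile normalised over all arrays and averaged over the 4 arrays of a chemical. The span of a probe is the distance between its highest and lowest chemical mean. Of the 14338 probes, 1417 had a span over 2 and up to 3 on the log2 scale, and are called moderate probes. The juvenoid difference is the mean of both juvenoids minus the mean of the other 34 chemicals. In 319 moderate probes both juvenoids lay on one side of the mean of the other 34 chemicals and the juvenoid difference was larger in size than the same difference for both ecdysteroids. The 150 of these with the largest juvenoid difference in size form the set. The side on which the juvenoids lie is called the juvenoid side, and a difference is counted as towards it or away from it.

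The probes carry design names (DM and 5 digits). None of the 14338 names is paired with a gene in the sources used here, so no gene, pathway or sequence could be attached to a probe, and the results below are about probes. The 1267 moderate probes outside the set serve as the comparison, since the set was chosen to vary.

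The arrays had a median foreground of 67 to 125 over a median background of 35 to 41, and 52.3% to 95.2% of probes on an array were above background (foreground minus background more than 3 SD over the mean of the array's 77 negative spots). In 27 of the 36 chemicals the 4 arrays fell into 2 pairs, with every distance within a pair smaller than every distance between pairs. The median root mean square distance over all probes was 0.12 within pairs and 0.23 between pairs on the log2 scale. Methylfarnesoate was among them, with replicates 1 and 2 against 3 and 4. The labels do not say what the pairs share. The 4 arrays of a chemical may thus hold fewer than 4 independent samples. The p-values rest on a spread between arrays that was pooled over all 36 chemicals for each probe. They may be too small. Counts with the 2 pair means of a chemical in place of its 4 arrays are given beside the results.

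The juvenoids lay above the other chemicals in 121 of the 150 probes and below them in 29. The juvenoid difference was small in every member. Its size ran from 0.41 to 0.98 on the log2 scale with a median of 0.54, so that 0 of 150 reached a change of 1. The size of the difference had a median of 0.57 in the 121 higher probes and of 0.47 in the 29 lower ones. At the edge of the set, DM10588 (0.41) and DM03059 (0.41) were the last probes inside and DM06131 (0.41) and DM01248 (0.40) the first outside, so no gap marks the border of the set. Measured from the median of the 34 chemicals in place of their mean, both juvenoids were on the juvenoid side in 146 members, and the median difference was 0.52. Which probes were members depended on the processing, since 57 of the 150 were found again with median centring in place of quantile normalisation, 89 with an offset of 16 and 61 with an offset of 200.

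The members were mostly bright probes. Their median level over the 34 other chemicals was 9.41 on the log2 scale, against 8.61 in the other moderate probes and 6.71 in all probes. By this level 147 of the 150 were above the median of all probes. On every array of the series, 137 members (91.3%) were above background, against 82.4% of the other moderate probes and 46.6% of all probes. In 2 members this was not so on every one of the 8 juvenoid arrays. A signal at the scanner limit occurred in 1 member and a bad-spot flag in 1. The names of 6 pairs of members are consecutive numbers, among them DM00695, lower in the juvenoids, and DM00696, higher in them.

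Most members owed more of their juvenoid difference to one juvenoid than to the other. The difference of Methylfarnesoate from the 34 chemicals had a median size of 0.68 (0.11 to 1.51) and that of Pyripoxyfen 0.43 (0.0076 to 1.02). Methylfarnesoate was the further of the juvenoids in 106 members and Pyripoxyfen in 44. Methylfarnesoate passed a size of 1 in 14 members and Pyripoxyfen in 2, and both passed 0.5 in 32. In 10 members the Pyripoxyfen difference was under 0.1, although its side counted for membership. Doses and vehicles of the juvenoids differ, so these values stand side by side without a test. The rule makes a member of any probe whose mean of both is large, so the spread along the line of equal means in the plot of the juvenoid differences is set by the choice.

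**Figure D1:**
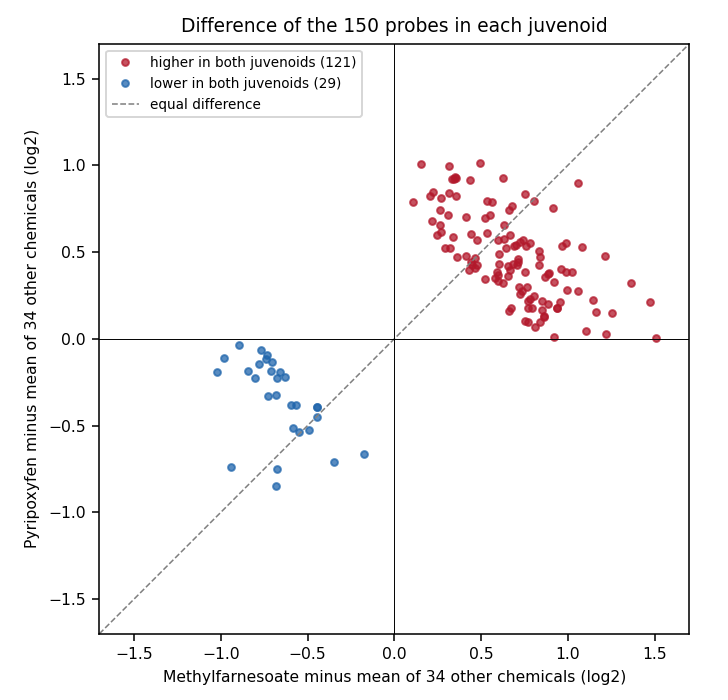
Difference of each of the 150 probes from the mean of the other 34 chemicals in Methylfarnesoate (horizontal, log2) and Pyripoxyfen (vertical, log2). Each point is a probe, the 121 higher in both juvenoids in red and the 29 lower in blue, and 106 points are further from 0 along the horizontal axis than along the vertical one.

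The 8 juvenoid arrays chose the members, so how many of them lie on the juvenoid side is largely set by the choice and is given as a description. All 4 Methylfarnesoate arrays lay on the juvenoid side in 142 members, all 4 Pyripoxyfen arrays in all but 6, and all 8 juvenoid arrays in 136. The difference exceeded 2 SD of its own 4 arrays in 123 members for Methylfarnesoate and in 137 for Pyripoxyfen. The median SD was 0.16 in Methylfarnesoate and 0.055 in Pyripoxyfen. The gap between the array pairs of Methylfarnesoate had a median of 0.25 and reached 1.21, and in 15 members it was larger than the Methylfarnesoate difference itself. In Pyripoxyfen the median gap was 0.069, and it was larger than the difference in 6 members.

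DM10843 had the largest juvenoid difference, 0.98. Its Methylfarnesoate arrays read 8.73, 8.79, 8.18 and 8.39 and its Pyripoxyfen arrays 8.41, 8.27, 8.30 and 8.46, against a mean of 7.46 over the 34 other chemicals. Both juvenoids were high and overlapped each other, but 3 other chemicals were further than both, with Dichlorobenzene highest at 9.25 ± 0.20 (SD, n = 4). Nickel was lowest at 6.26 ± 0.02 (SD, n = 4).

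DM03237, a very bright probe, read 14.43, 14.53, 14.86 and 14.77 in Methylfarnesoate and 13.90, 13.95, 13.92 and 13.88 in Pyripoxyfen, against a mean of 13.43 over the 34. The Methylfarnesoate mean, 14.65, was the highest of the 36 chemicals, while Pyripoxyfen stood 13th. DM08505 was of the same kind, with 12.50, 12.36, 12.61 and 12.35 in Methylfarnesoate and 11.25, 11.53, 11.45 and 11.41 in Pyripoxyfen. The other 34 chemical means of DM08505 ran from 9.73 to 12.03, so its Methylfarnesoate arrays were all above them and its Pyripoxyfen arrays were within their range.

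DM04427 showed the widest gap between the juvenoids. It read 9.63, 9.78, 9.46 and 9.72 in Methylfarnesoate and 8.14, 8.13, 8.18 and 8.13 in Pyripoxyfen, and the mean of the 34 was 8.14. The Methylfarnesoate difference was 1.51 and the Pyripoxyfen difference 0.0076, so this probe is a member through Methylfarnesoate. DM07367 came close to it, with differences of 1.47 and 0.21. DM04755 (0.99 and 0.55) was also highest in Methylfarnesoate, whose arrays read 10.24, 10.21, 10.42 and 10.12 above a highest other mean of 10.01.

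Pyripoxyfen was the further juvenoid in DM03745, with 11.23, 11.15, 11.11 and 11.29 against 10.44, 10.47, 11.03 and 10.77 in Methylfarnesoate. The groups did not overlap, and the mean of the 34 chemicals was 10.18. DM01015 had the same order, with a difference of 0.92 in Pyripoxyfen and 0.63 in Methylfarnesoate. Methoxychlor, an organochlorine insecticide, had the highest mean of DM03745 (11.78) and of DM01015 (11.89).

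In DM03022 the juvenoids were alike in level. Its Methylfarnesoate arrays read 11.46, 11.53, 11.53 and 11.51 and its Pyripoxyfen arrays 11.61, 11.44, 11.40 and 11.54, a difference from the 34 chemicals of 0.81 and 0.80. Methylfarnesoate stood 3rd and Pyripoxyfen 4th of 36, and Methoxychlor was highest at 11.69. In DM12768 Pyripoxyfen stood 2nd (8.62 ± 0.04, SD, n = 4) and Methylfarnesoate 4th (8.55 ± 0.23, SD, n = 4), below Beta-estradiol at 8.92. DM07970 was high in both as well, but its Methylfarnesoate arrays split into 8.70 and 8.73 for replicates 1 and 2 and 7.96 and 7.77 for replicates 3 and 4. DM00696 had differences of 1.08 and 0.53.

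The 12 lowest probes began with DM05019. Its Methylfarnesoate arrays read 7.21, 7.20, 7.52 and 7.26 and its Pyripoxyfen arrays 7.57, 7.46, 7.41 and 7.56, below a mean of 8.24 over the 34 chemicals. Atrazine, a triazine herbicide, was lower still at 7.14, and Chromium reached 9.81. In DM05985 the mean of the 34 chemicals was 7.60 but their median 7.06, with Chromium at 9.36. Against that median the Methylfarnesoate mean of 6.92 and the Pyripoxyfen mean of 6.75 lay only a little lower. DM01239 was of this kind too, with a mean of 6.71 and a median of 6.26 over the 34 chemicals, Arsenic at 8.74, and 6.16 and 6.18 in the juvenoids. The Media chemicals were higher than those of other vehicles by 1.44 in DM05019, 1.61 in DM05985 and 1.35 in DM01239. Against chemicals of their own vehicles, Methylfarnesoate and Pyripoxyfen differed by -0.20 and -0.27 in DM05019. The same differences were -0.03 and -0.28 in DM05985 and -0.04 and -0.02 in DM01239. DM05718, dim at 6.15 and 6.08 in the juvenoids, was above background on all 8 juvenoid arrays and on 136 arrays in all.

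Among the lower probes, DM01385 and DM06442 were near the Methylfarnesoate end. DM01385 read 12.37, 12.24, 11.56 and 11.78 in Methylfarnesoate and 12.81, 12.81, 12.84 and 12.81 in Pyripoxyfen, against a mean of 13.01. DM06442 had differences of -0.98 and -0.11. Diazinon, an organophosphate insecticide, was lowest of all 36 chemicals in both. DM06672 was the reverse, with -0.34 in Methylfarnesoate and -0.71 in Pyripoxyfen. DM11211 (-0.58 and -0.51) and DM00695 (-0.49 and -0.52) were about equal in both. Against chemicals of their own vehicles, however, the juvenoids were higher in DM11211, by 0.41 in Methylfarnesoate and 0.06 in Pyripoxyfen. In DM05167 (-0.73 and -0.33), DM00965 (-0.81 and -0.23) and DM02366 (-0.84 and -0.18) Methylfarnesoate was further.

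**Figure D2:**
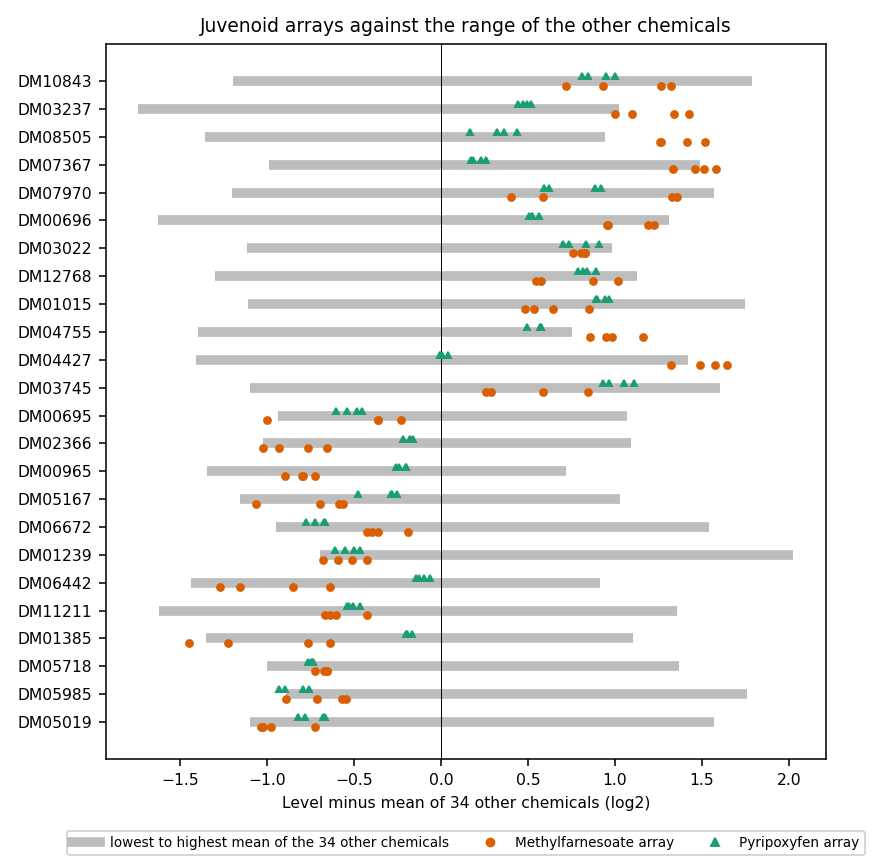
Level of the 12 probes with the highest and the 12 with the lowest juvenoid difference, as log2 difference from the mean of the other 34 chemicals. Circles are the 4 Methylfarnesoate arrays, triangles the 4 Pyripoxyfen arrays and grey bars run from the lowest to the highest of the 34 chemical means. The 4 circles of DM08505 and of DM04755 lie beyond the grey bar, and all triangles of the 24 probes lie within it except 2 of DM05985.

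The levels went against calling the set a mark of juvenoids. Methylfarnesoate was the furthest of the 36 chemicals in 12 members and Pyripoxyfen in 2, and in 0 members did the juvenoids take both first places. Both stood among the first 5 chemicals in 8 members and among the first 10 in 57. In the median member Methylfarnesoate stood 4th and Pyripoxyfen 9th. In 136 of the 150 some other chemical was further towards the juvenoid side than both. Diazinon was the furthest chemical in 39 members, Methoxychlor in 25 and Atrazine in 14. The probes are therefore described by the rule that chose them.

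For each array the median difference of the 150 members from the mean of the 34 chemicals was taken, counted positive towards the juvenoid side. Diazinon (0.0003 mg/L, Acetone) read 0.72, 0.73, 0.67 and 0.67. Methylfarnesoate read 0.60, 0.64, 0.72 and 0.74, overlapping Diazinon. Without replicate 1 or without replicate 2 of every chemical, 0 chemicals were above Methylfarnesoate, in place of 1. Atrazine (2.07 mg/L, Acetone) read 0.47, 0.56, 0.56 and 0.48, Beta-estradiol (1 mg/L, Ethanol), the main vertebrate estrogen, read 0.49, 0.51, 0.47 and 0.51, and both overlapped each other. Pyripoxyfen read 0.43, 0.42, 0.42 and 0.44, below all 4 arrays of Beta-estradiol.

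Below Pyripoxyfen followed Bifenthrin at 0.40 ± 0.01, Nonylphenol at 0.38 ± 0.04, Lamda Cyhalothrin at 0.36 ± 0.02, Methoxychlor at 0.36 ± 0.01 and PonasteroneA at 0.32 ± 0.02 (SD, n = 4 each). Neighbours in this stretch lay mostly within their SDs of each other. Bifenthrin and Lamda Cyhalothrin are pyrethroid insecticides, and Nonylphenol is a breakdown product of surfactants. The other ecdysteroid, 20 hydroxyecdysone, was at -0.11 ± 0.07 (SD, n = 4). The ecdysteroids belong to different vehicles, and in the deposited ratios to the vehicle control their order turned, with a median of 0.82 in 20 hydroxyecdysone and 0.15 in PonasteroneA.

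At the other end of this scale lay chemicals with levels on the side of the 34-chemical mean opposite to the juvenoids. Nickel (0.69 mg/L, Media) read -0.74, -0.76, -0.69 and -0.73. Copper (0.00615 mg/L, Media) read -0.53, -0.53, -0.59 and -0.57 and Chloroform (7.47 mg/L, Ethanol) -0.50, -0.47, -0.53 and -0.56, overlapping each other. Of the 9 metals and metalloids, all in Media, 8 had a mean below 0 on this scale, while in the deposited ratios to the Media control all 9 were above 0 (0.17 to 1.14). On the scale of the 34 chemicals they ran from -0.73 in Nickel to 0.07 in Manganese, whose arrays split into -0.01 and -0.02 against 0.17 and 0.16. The chemicals furthest away from the juvenoid side were Copper in 26 members, Nickel in 25 and Chloroform in 25. The median of the other moderate probes, each counted by its own juvenoid side, was -0.29 in Nickel and 0.26 in Diazinon, so the same order held there in smaller size for these chemicals.

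**Figure D3:**
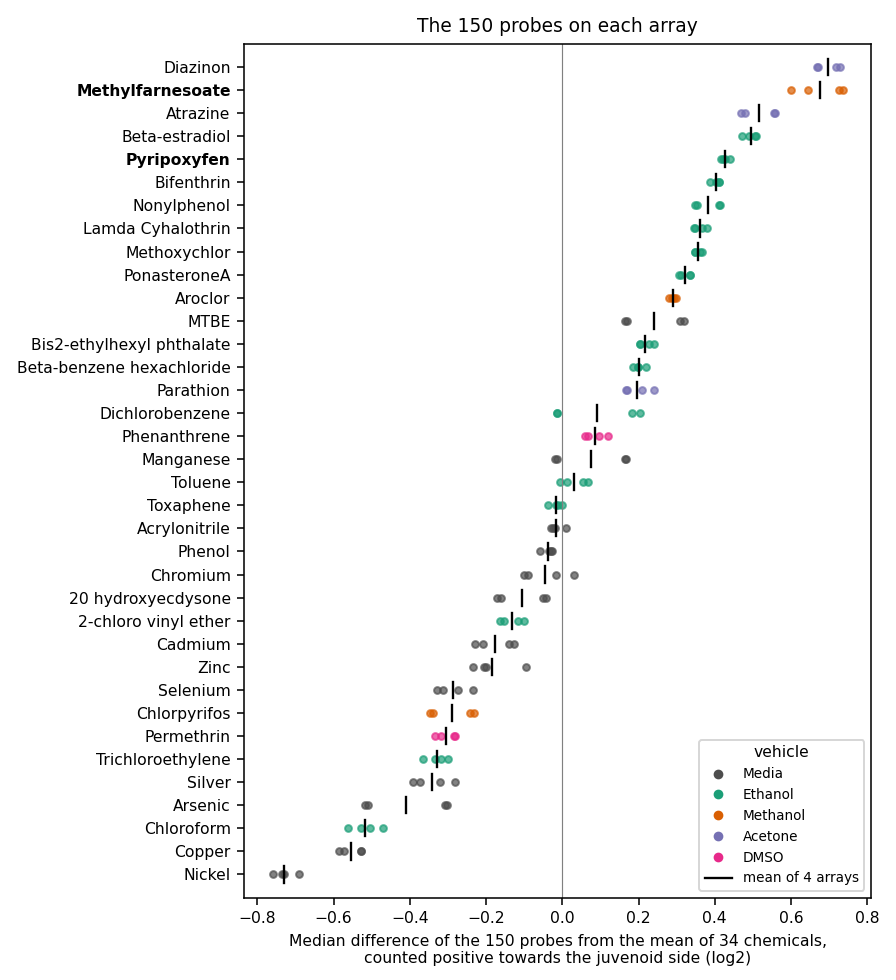
Median difference of the 150 probes from the mean of the other 34 chemicals, counted positive towards the juvenoid side (horizontal, log2), for each array, by chemical. Points are arrays coloured by vehicle and black bars the mean of 4 arrays, from -0.73 in Nickel to 0.70 in Diazinon, and Methylfarnesoate (0.68) and Pyripoxyfen (0.43) stand 2nd and 5th from the top. In the deposited ratios to the vehicle control, not plotted, the Media chemicals are all above 0.

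The order of chemicals of different vehicles depended on what they were measured against. The deposited log2 ratios set each array against the reference of its vehicle. There the median of the members was above 0 in all 13 Media chemicals, from 0.17 in Nickel to 1.27 in MTBE, in place of 2 of them. Copper, at 0.35, was also above 0. Diazinon stood at 0.56, Atrazine at 0.38 and Beta-estradiol at 0.19, while Chloroform, at -0.77, was below 0 on both scales. Above the 0.70 of Methylfarnesoate were 9 chemicals, all of them Media chemicals, in place of 1, and above the 0.27 of Pyripoxyfen were 15, in place of 3. Nickel was the lowest and MTBE the highest Media chemical on both scales. In the other moderate probes the same medians were 0.04 in Nickel, 0.38 in MTBE and 0.25 in Diazinon. The direction of the members under a Media chemical is therefore not settled across vehicles, and the spread of the control arrays is not in these ratios.

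The members also moved with each other over the 34 chemicals that were not juvenoids, once each was turned to its juvenoid side. Across these chemicals the median correlation between 2 members was 0.32 over 11175 pairs, and 85.8% of the pairs were above 0. In the other moderate probes the median was 0.05 with 55.4% above 0, and in the 169 probes that met the rule but were not members it was 0.15. The first principal component of the members took 34.7% of their variance over the 34 chemicals, against 27.1% in the other moderate probes, with Diazinon, Beta-estradiol and Atrazine at one end and Nickel, Copper and Chloroform at the other. These values are descriptions, since all probes share the same arrays and each chemical also enters the mean of the 34 that the rule used.

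On the scale of the 34 chemicals, vehicle moved with the order. The 3 Acetone chemicals were all above 0 (0.20 to 0.70), and 10 of the 14 nonjuvenoid Ethanol chemicals were above 0, while 2 of the 13 Media chemicals were (-0.73 to 0.24), in contrast to all 13 in the deposited ratios. Against the equally weighted mean of the chemicals of other vehicles, with the juvenoids left out, the Acetone chemicals changed 13 members towards the juvenoid side at a limma adjusted p under 0.05 and a log2 change of at least 1. That is 8.67% of members, against 6.47% of the other moderate probes and 2.72% of all probes. Media chemicals changed 4 members away (2.67%, against 1.17% of all probes). Ethanol chemicals, the vehicle of Pyripoxyfen, changed 0 members towards (against 1.42% of all probes). Methanol chemicals, the vehicle of Methylfarnesoate, changed 1 towards (0.667%, against 1.39% of all probes). Counting differences of any size, 116 members lay on the juvenoid side in the Ethanol comparison. Their median there was 0.19, against 0.12 in the other moderate probes. In the Methanol comparison 73 members lay on it, with a median of -0.0037. Vehicle and chemical cannot be told apart here, since each chemical was given in 1 vehicle.

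The juvenoids were also set against chemicals of their own vehicle alone, as a description, since the juvenoid arrays chose the members. Methylfarnesoate was on the juvenoid side of the mean of Aroclor and Chlorpyrifos in 145 members, with a median difference of 0.67. Pyripoxyfen was on it against the other 14 Ethanol chemicals in 137 members, with a median difference of 0.30, lower than the 0.43 against all 34. Both were on it in 133. In the authors' deposited log2 ratios to the vehicle control, which hold all members but 1, Methylfarnesoate was on the juvenoid side in 139 with a median of 0.70. Of these members, 43 differed towards the juvenoid side by at least 1 at an adjusted p under 0.05, beside 9.71% of all probes. Pyripoxyfen was on the juvenoid side in 111 with a median of 0.27, and 11 members differed by that measure, beside 9.49% of all probes. The juvenoid arrays chose the members, so nothing is read from these shares, and the spread of the control arrays is not in these ratios. DM07367 had a ratio of 2.42 ± 0.11 in Methylfarnesoate and 0.58 ± 0.05 in Pyripoxyfen (SD, n = 4 each), while DM04427 had 2.35 ± 0.15 and -0.42 ± 0.03.

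The sides were then read in arrays left out of the group means of the rule. Levels were still normalised over all arrays, and no rate was taken for other probes, so the counts are a description. The rule was applied without 1 replicate number and its 150 probes were read in that replicate. It found 119 to 130 of the members again. In the left-out replicate both juvenoids were on the same side in 143, 141, 131 and 147 of 150 probes for replicates 1, 2, 3 and 4, with a median juvenoid difference of 0.48, 0.51, 0.53 and 0.57. Where arrays fall into pairs, the partner of a left-out array was still in use. With a whole pair of arrays of every chemical left out, the rule found 86 and 79 of the members, and both juvenoids were on the same side in 129 and 109 of 150 probes in the pair left out. The median juvenoid difference there was 0.39 and 0.47, against 0.55 and 0.60 in the pairs used. A share of the membership thus rested on the pair of arrays taken.

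Comparisons with no juvenoid among the chemicals compared asked how the same probes behaved under other chemicals. The juvenoid arrays still entered the pooled spread of the fit and set the juvenoid side. Each chemical was compared with the equally weighted mean of the other nonjuvenoid chemicals of its vehicle, in 32 comparisons. A probe was called at a limma adjusted p under 0.05 with a log2 difference of at least 1. Over the 32 comparisons the members had 154 calls towards the juvenoid side in 4800 tests (3.21%), against 3.69% in the other moderate probes and 1.58% in all probes. They had 282 calls away from it (5.88%), against 4.40% and 1.78%. With array pairs averaged the shares were 3.17% and 5.83%. The counts moved with the offset, to 66 towards and 140 away at an offset of 200, and there were 292 calls towards in the deposited ratios. At the main settings calls towards were thus no more frequent than in other moderate probes, and calls away were somewhat more frequent. These sums include 20 hydroxyecdysone and PonasteroneA, whose difference the rule limited in the members. They held 9 and 3 calls towards in the members, against 197 and 57 in the other moderate probes. Calls away in them were 6 and 0, against 165 and 54. Both comparisons of shares are therefore partly set by the choice. With no minimum change the members had more calls towards than away. Shares of other moderate probes were not taken at the altered settings, so this comparison holds for the main settings alone. Every chemical is 1 of the 34 in the mean the rule used, so a low chemical adds a little to the juvenoid difference, and the counts away are not fully independent of the choice. Comparisons within a vehicle share arrays and are given side by side.

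Aroclor, a mixture of polychlorinated biphenyls, had the most calls towards the juvenoid side. Against Chlorpyrifos, the other Methanol chemical, it changed 26 members towards (17.3%), beside 3.06% of all probes and 8.84% of the other moderate probes. This is a comparison of 2 chemicals, so a low Chlorpyrifos counts as a high Aroclor. Diazinon against the other Acetone chemicals changed 17 towards (11.3%), beside 2.60% of all probes and 6.16% of the other moderate probes. Methoxychlor changed 15 (10.0%), beside 3.25% of all probes, but 14.5% of the other moderate probes changed as well. Phenol changed 10 (6.67%), beside 2.21% of all probes and 4.97% of the other moderate probes.

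Of the chemicals known for hormone-like action in animals, Beta-estradiol changed 9 members towards the juvenoid side (6.0%), beside 1.56% of all probes and 2.84% of the other moderate probes. Nonylphenol changed 3 (2.00%), beside 0.544% of all probes, and Bis2-ethylhexyl phthalate, a plasticiser, changed 2 (1.33%), beside 0.579%. The median difference of the members was 0.38, 0.36 and 0.12 in these 3 chemicals. Against the other Ethanol chemicals 118, 109 and 100 members were on the juvenoid side, most of them by less than the minimum of 1. For the ecdysteroids, which the rule limited, 20 hydroxyecdysone had 9 members towards (6.0%) beside 4.55% of all probes and 15.5% of the other moderate probes. PonasteroneA had 3 (2.00%) beside 1.51% and 4.50%. The rule limits the ecdysteroid difference, so nothing is read from these counts.

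Calls away from the juvenoid side were concentrated in a few chemicals. Chloroform changed 52 members away (34.7%), beside 4.49% of all probes and 13.9% of the other moderate probes, with a median of -0.65. Trichloroethylene, another small chlorinated solvent, changed 37 (24.7%), beside 2.80% and 6.71%, with a median of -0.42. Nickel changed 31 (20.7%), beside 3.36% and 6.95%, with a median of -0.55 against the other Media chemicals. Permethrin, a pyrethroid, changed 44 (29.3%) against Phenanthrene, beside 7.16% of all probes, but 25.1% of the other moderate probes changed in the same direction too. The share of members was therefore near that of other moderate probes for Permethrin.

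**Figure D4:**
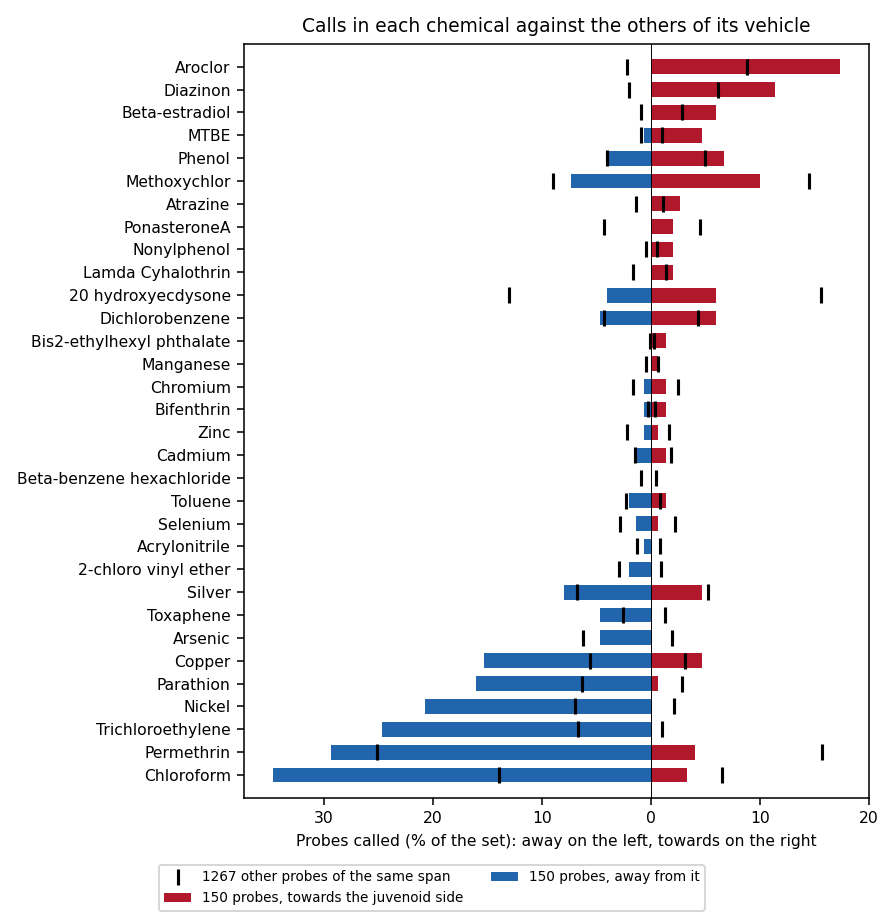
Share of the 150 probes called in each of 32 comparisons of a chemical with the others of its vehicle, towards the juvenoid side to the right (red) and away from it to the left (blue), in percent. Black ticks are the same shares of the 1267 other moderate probes. The longest bar to the left is Chloroform (34.7%) and the longest to the right Aroclor (17.3%).

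Single members went both ways. At least 1 call towards the juvenoid side was found in 90 members and at least 1 away in 127, while 11 had no call in any of the 32 comparisons. The most for 1 member were 5 towards and 6 away. These counts were not taken over other probes, and the members were chosen to vary, so nothing is read from them. DM10674 had 5 towards and 3 away. In Copper its arrays read 9.86, 11.14, 11.13 and 9.80, a difference of 1.40 from the other Media chemicals (adjusted p = 9.94e-14), and this small p stands beside arrays that split into pairs. In Chloroform it read 8.10, 8.08, 7.56 and 7.56, a difference of -1.94 (adjusted p = 9.45e-22).

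DM11424 had 4 calls towards and 3 away. Its arrays agreed closely in Phenol, at 9.42, 9.51, 9.48 and 9.43, a difference of 1.48 (adjusted p = 3.62e-35), and in Chloroform, at 6.76, 6.75, 6.61 and 6.51, a difference of -1.74 (adjusted p = 5.50e-42). DM10843, the member with the largest juvenoid difference, rose by 1.51 in Dichlorobenzene (adjusted p = 1.42e-21) and changed by -1.36 in Parathion (adjusted p = 7.84e-15). DM07367 differed by 1.36 between Permethrin and Phenanthrene (adjusted p = 3.08e-16) and by -1.07 between Parathion and the other Acetone chemicals (adjusted p = 1.57e-13), the latter just past the minimum. DM01239, a lower probe with 4 calls each way, read 8.41, 9.13, 9.02 and 8.40 in Arsenic, higher by 1.29 (adjusted p = 4.78e-10) and so away from the juvenoid side.

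The members with no call in any comparison included DM08396, DM03815, DM10940, DM00965 and DM12809, the 5 with the largest juvenoid difference among them. DM10940 read 9.58, 9.71, 9.81 and 9.68 in Methylfarnesoate and 9.44, 9.47, 9.40 and 9.41 in Pyripoxyfen, against a mean of 9.03, and stood 2nd and 4th of 36. DM00965 read 12.10, 12.04, 12.03 and 11.93 in Methylfarnesoate and 12.63, 12.57, 12.63 and 12.59 in Pyripoxyfen, against a mean of 12.83. DM08396 was less even, since its Methylfarnesoate arrays ran from 7.69 to 8.64. In these 5 the juvenoid differences were 0.64, 0.63, 0.53, -0.52 and -0.50.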

How the data were processed

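Total RNA of 4 beakers for each of 36 chemicals was labelled with Cy3 (per the labels, by the Agilent 1-colour protocol). Per the file headers, the scanner tables of the authors hold the median foreground and background intensity of each spot, with no normalization. The deposited value table holds log2 ratios of each array to a vehicle reference. Its scale was checked on pairs of chemicals of 1 vehicle, where 190 pairs gave a median slope of 1.03 (0.92 to 1.11) on scanner differences over 2197 bright probes. Its columns have medians of -0.03 to 0.04, and its direction (chemical over control) follows from these slopes. The submitters' processing notes name limma, and no settings are given in the sources used here. Control arrays (20, in 5 tables, 60 columns) could be tied to none of the samples and were left out.

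Each array has 15744 spots, of which 536 are controls. The signal was foreground minus background, floored at 0, plus 50, as log2, averaged over duplicate spots (870 probes) and quantile normalised. One limma model (3.58.1, R 4.3.3) of 36 group means over all arrays gave moderated tests, with Benjamini-Hochberg adjustment over all probes within a comparison. The model was tried on simulated data with independent arrays, which cannot show how it does on arrays that fall into pairs. A call needed an adjusted p under 0.05 and a log2 change of at least 1. The number of arrays limits the precision, and the offset compresses differences of dim probes. The members, comparisons and naming rule were chosen with earlier results of these data known. The text names the 12 members of largest positive and the 12 of largest negative juvenoid difference, the 5 called towards the juvenoid side most often, the 5 called least often, and the probes at the edge. It names 5 hormone-like chemicals and the 4 with most calls each way. Alternatives were median centring, normexp background, offsets of 16 and 200, filters on flagged and dim probes, left-out replicates, the replicate number as a block, the deposited ratios, no minimum change and, added after seeing the data, array pairs averaged and the deposited ratios as the scale of chemical medians.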

Additional observations from a re-analysis of the deposited data

Results flagged for a closer look

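In 100 groups of 4 arrays (36 chemical medians of the 150 probes, and the named probes in each juvenoid), 1 array was tested for lying apart from the other 3, which chance gives in about 5% of groups. It did so in 2. DM04755 read 9.753 in Pyripoxyfen replicate 3, below 9.828 to 9.838 in the other replicates, a small gap. DM05167 read 8.005 in Pyripoxyfen replicate 1, below 8.198 to 8.231 in the others. Both arrays lay on the juvenoid side of the mean of the 34 chemicals (9.26 and 8.49).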

How the results depend on the processing

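Of 110 recomputed counts over the set, 18 moved by more than 1.5 times, as did 51 of 206 counts for single chemicals or vehicles. Of 35 recomputed chemical medians, 19 moved by more than the SD of their 4 arrays or changed sign, and of 320 differences of single probes 26 moved by more than their SD and 0 changed sign. With median centring, 57 of the 150 members were found and 509 probes met the rule. With an offset of 16, 89 members were found, with 237 calls towards in other chemicals and 10 away between vehicles. With an offset of 200, 61 members were found of 180 probes that met the rule, with 66 calls towards and 140 away in other chemicals and 8 and 3 between vehicles. The deposited ratios gave 292 calls towards. As a scale for chemical medians, a choice added after seeing the data, they put 9 chemicals above Methylfarnesoate and 15 above Pyripoxyfen, and turned the sign of Nickel (0.17), Copper (0.35) and 20 hydroxyecdysone (0.82). With no minimum change there were 1636 calls towards and 1436 away. With array pairs averaged, an alternative added after seeing the data, 280 calls away and 3.17% of tests towards were found. Leaving out 1 replicate number gave 119 to 130 members, 274 to 299 calls away in other chemicals, and 0 to 1 chemicals above Methylfarnesoate. The cause of these shifts was not tested.

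Deviations of same-numbered arrays correlated with a median of 0.0017 (-0.60 to 0.60), so no pairing by replicate number common to the chemicals was seen. The range does not settle whether some chemicals share one. With the replicate number as a block there were 154 calls towards and 282 away in other chemicals, 14 and 6 between vehicles, and 43 and 11 members against the vehicle control in Methylfarnesoate and Pyripoxyfen, and it changed no call count reported. Of 140 recomputed calls of single probes, 6 were lost, 5 of them at an offset of 200. Dim probes are limited most by signal over background.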
